A study of Mus musculus with 48 samples.

Results

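The GIMAP genes (GTPases of immunity-associated proteins) were followed through spleen T cells of C57BL/6 mice, an inbred laboratory strain. Members were the rows of the deposited matrices with the symbols Gimap1, Gimap3, Gimap4, Gimap5, Gimap6, Gimap7, Gimap8 and Gimap9, 8 of 53345 rows, and all 8 passed the filter on low counts. Groups of female mice, 8 to 12 weeks old, were dosed once under the skin with WT IL-2, H16R or 3x (25 µg each), or with PBS as control. These molecules are human IL-2 fused to an antibody Fc part, and H16R and 3x are muteins, versions with amino acid substitutions that lower their activity. Antibody was given to every mouse, PBS mice included, in 2 injections of 500 µg on the day before and the day of dosing, either an isotype control or an antibody that blocks MHC class II (MHC II block), the molecule that shows antigen to CD4 T cells. Spleens were taken on day 4, and a bead kit separated CD25-bound cells, used as Tregs (regulatory T cells), from the flow-through, used as Tcons (conventional CD4 T cells). Each of the 8 Treg groups had 4 libraries, and Tcons of 2 mice of each group were sequenced, giving 32 Treg and 16 Tcon libraries. Each library was counted as 1 mouse, although the labels give the same mouse code to 2 of the isotype WT IL-2 Treg libraries and do not settle whether these are separate mice. A library is a bead fraction, not a pure cell type. In bulk RNA, fewer cells of a type and less RNA per cell cannot be told apart.

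GIMAP proteins bind GTP, several sit on intracellular membranes such as lysosomes and the endoplasmic reticulum, and the family is known for its high expression in mature lymphocytes. Gimap5 is needed for the survival of peripheral T cells in rats and mice, and Gimap1 for the survival of mature T and B cells. Gimap3 is a close relative of Gimap5. Gimap6 binds GABARAPL2, a protein of autophagy, and Gimap7 is known to act on the GTPase cycle of other members. Gimap8 carries several GTPase domains where the other members carry a single domain. Gimap4 and Gimap9 are less well understood, and Gimap4 has been tied to the pace of T cell death.

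The 8 genes lay in 1 cluster of 123.618 kb on chromosome 6 (GRCm38, chr6:48647234-48770851, GENCODE vM21), in the order Gimap8, Gimap9, Gimap4, Gimap6, Gimap7, Gimap1, Gimap5 and Gimap3. Gimap6 and Gimap3 are on the minus strand and the other 6 on the plus strand. Gimap7 spanned chr6:48718621-48724636, Gimap4 chr6:48684549-48692060 and Gimap6 chr6:48701582-48708225. The antisense noncoding gene Gimap1os overlaps the start of Gimap1 on the minus strand. Its CPM over the 32 Treg libraries ran from 16.19 to 36.11 with a median of 26.5, against 138.4 to 249.5 with a median of 204 for Gimap1. Libraries were made with a stranded kit, but whether strand was used in counting is not stated, so that reads of Gimap1 and Gimap1os may not have been told apart.

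Sequence before the start is shown for the 2 members with the largest responses to IL-2, Gimap7 and Gimap4, and for Gimap6, which did not pass the test for any IL-2 molecule in the isotype arm. The 250 bases are from RefSeq on GRCm38.p6, 5′ to 3′ along the gene: chr6:48718371-48718620 (plus) for Gimap7, chr6:48684328-48684577 (plus) for Gimap4 and chr6:48708245-48708494 (minus) for Gimap6. Capitals mark matches to a STAT dimer motif (TTCNNNGAA) or a RUNX motif (TGTGGT, in either direction).
Gimap7: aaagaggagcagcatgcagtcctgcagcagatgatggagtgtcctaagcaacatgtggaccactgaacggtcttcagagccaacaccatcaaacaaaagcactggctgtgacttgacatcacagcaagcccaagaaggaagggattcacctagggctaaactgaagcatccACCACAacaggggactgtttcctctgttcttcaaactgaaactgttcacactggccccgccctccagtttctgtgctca
Gimap4: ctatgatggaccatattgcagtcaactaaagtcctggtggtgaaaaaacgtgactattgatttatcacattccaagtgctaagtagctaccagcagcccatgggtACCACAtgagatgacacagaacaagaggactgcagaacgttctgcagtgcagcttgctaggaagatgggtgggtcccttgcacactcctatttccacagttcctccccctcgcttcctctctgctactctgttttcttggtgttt
Gimap6: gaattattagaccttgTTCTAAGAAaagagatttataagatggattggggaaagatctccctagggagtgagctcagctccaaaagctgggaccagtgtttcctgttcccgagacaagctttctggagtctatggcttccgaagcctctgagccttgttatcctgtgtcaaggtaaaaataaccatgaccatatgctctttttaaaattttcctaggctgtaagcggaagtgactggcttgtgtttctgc
Windows for the 8 members were found, 9 in all because Gimap8 had 2 starts, and they were searched on both strands from 250 bases before to 50 bases after the start for these motifs, for a forkhead motif (GTAAACA) and for a KLF motif (CCACACCC). The RUNX motif was in the windows of Gimap7, Gimap4 and Gimap1, and the STAT motif in those of Gimap7 (TTCTTTGAA, 40 bases after the start), Gimap6, Gimap3 and 1 of the 2 windows of Gimap8. Gimap3 also held the forkhead motif. The windows of Gimap9 and Gimap5 and the other window of Gimap8 held none of these letters. Among all 32851 windows of this length, 8.30% held the STAT motif, 16.8% the RUNX motif, 3.65% the forkhead motif and 3.56% the KLF motif. Gimap7 and Gimap4 shared the RUNX letters with Gimap1 and with none of the other 5 members, and a match is a description of the sequence only.

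**Figure D1:**
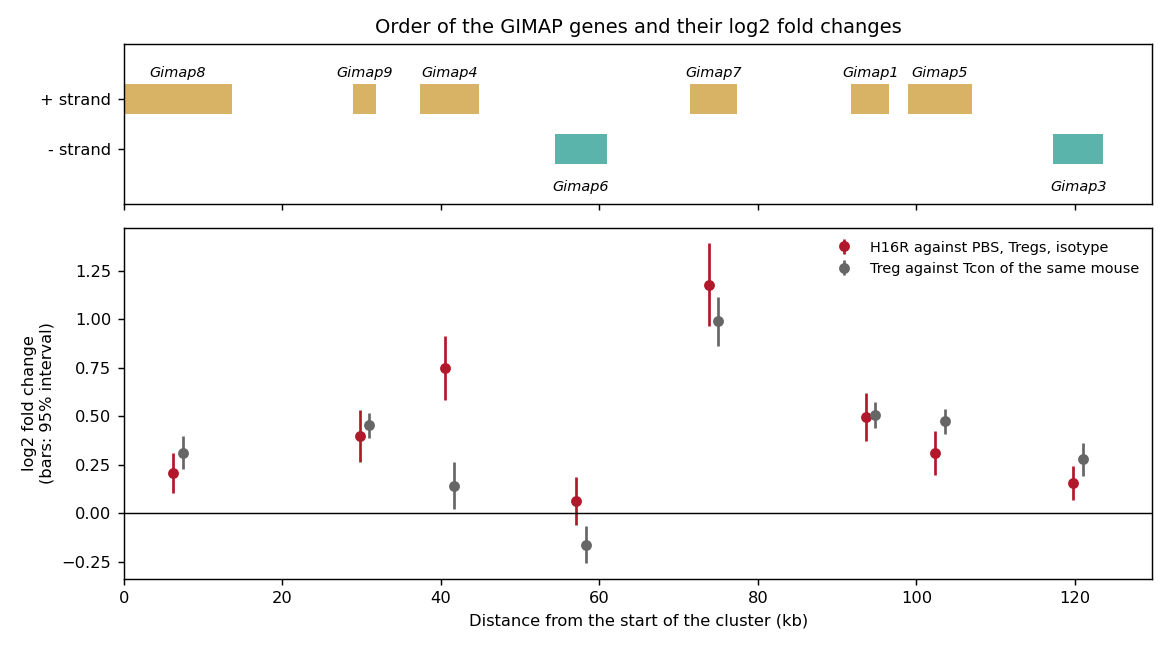
Upper panel: the 8 genes as bars by distance from the start of the cluster in kb and by strand. Lower panel: log2 fold change of each gene (point, with 95% interval) for H16R against PBS in isotype Tregs and for Tregs against Tcons of the same mouse. Gimap7, in the middle of the cluster, had the highest value in both comparisons (1.18 and 0.99), and Gimap6, its nearest neighbor on one side, was at 0.06 and -0.16.

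Depth ran from 18.28 to 51.95 M expected counts a library (M, mega), and the isotype PBS Tregs were the shallowest group (18.28 to 34.58 M). Foxp3, the factor that defines Tregs, ran from 687 to 1250 CPM in Treg libraries and from 46.8 to 183 CPM in Tcon libraries. Cdh5, Kdr and Emcn, defining markers of endothelium, which also expresses GIMAP genes, were at most 0.899 CPM in any Treg library. Pecam1, the fourth marker of that list and a gene that T cells also express, ran from 146 to 220 CPM, and the sum of the list had a median of 168 CPM with isotype PBS and 206.6 CPM with isotype 3x. Its part in the results was not tested. Of the Treg libraries, 2 stood apart by markers of other cells. Replicate 1 of isotype PBS had 544.4 CPM summed over 5 B cell markers against at most 129.2 in the rest of its group. Replicate 1 of MHC II block with WT IL-2 had 517.9 CPM of B cell markers and 508.7 CPM of 6 myeloid markers, against at most 87.75 CPM of the myeloid markers in its group, and it had the lowest CPM of its group for all 8 GIMAP genes. For comparisons that hold either library, counts without it or without both are given beside the values, with the members whose call changed.

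Levels of different genes were compared by FPKM, the authors' estimate per transcript length and per library depth. The members fell into 3 abundant genes and 5 at lower levels. Over the 32 Treg libraries Gimap6 ran from 416.6 to 582.1 FPKM with a median of 526.5. Gimap3 ran from 430 to 578.4 FPKM with a median of 485.1. Gimap4 ran from 269.5 to 563.6 FPKM with a median of 432.7. These 3 overlapped, and Gimap6 was above Gimap3 in 19 of 32 libraries. Gimap8 (121.9 to 164.1 FPKM, median 149.2) was below Gimap4 in 32 of 32 libraries without overlap. Gimap1 (91.96 to 159.8, median 132.7) and Gimap7 (53.32 to 187.3, median 129.9) overlapped with Gimap8 and with each other. Gimap9 (53.58 to 92.04, median 72.25) was above Gimap5 (39.62 to 58.44, median 52.06) in 32 of 32 libraries. Ranked by mean FPKM among 21163 protein-coding genes, Gimap6 was at 129 and Gimap5 at 1380 in Tregs.

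In the 16 Tcon libraries the order of the mean FPKM was the same, with Gimap6 at 585 ± 54.68 (SD, n = 16) and Gimap5 at 39.94 ± 3.045. Gimap6 was above Gimap3 (428.6 ± 33.79) in 16 of 16 Tcon libraries, with no overlap of their ranges. Gimap7 (65.21 ± 17.06) and Gimap9 (56.14 ± 5.676) changed places between Tcon libraries, with Gimap7 higher in 10 of 16. By mean FPKM the leading member of the Treg groups differed between the arms. Gimap6 had the highest mean FPKM in all 4 isotype groups, without overlap with the next gene, Gimap3 led in the PBS and WT IL-2 groups with MHC II block, and Gimap4 led in the H16R and 3x groups with MHC II block. In every MHC II block group the leader overlapped with the next gene. With H16R there, the means of Gimap4, Gimap6 and Gimap3 were 541.1, 533.3 and 532.1 FPKM. By mean CPM, Gimap3 led in every MHC II block group and with isotype and H16R. The share of all expected counts taken by the 8 genes was 0.3037% in the lowest library and 0.4276% in the highest.

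**Figure D2:**
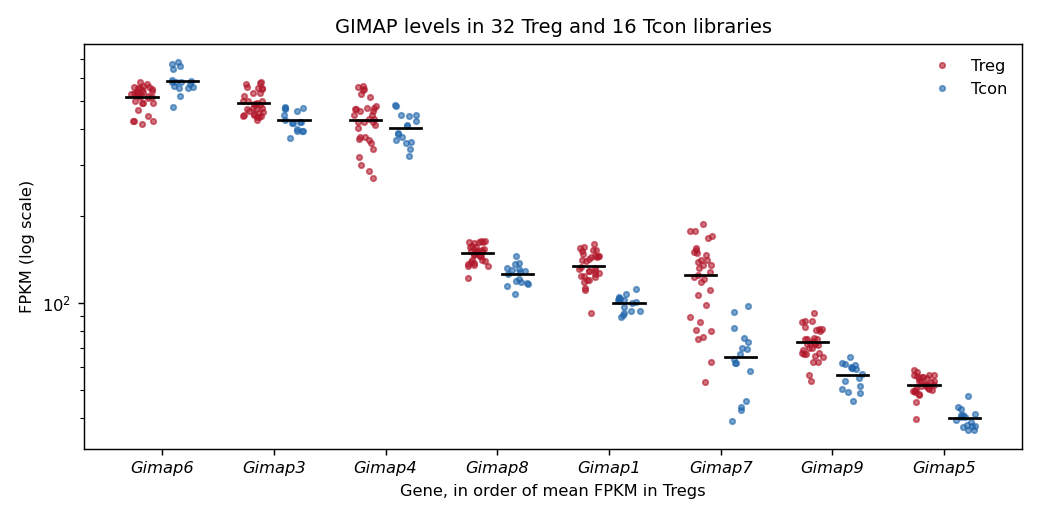
FPKM on a log scale of each member in every Treg and Tcon library (points), with the mean (black line), ordered by the mean in Tregs. Gimap6, Gimap3 and Gimap4 lie above the other 5 in every library, and on this scale Gimap7 shows the widest spread in Tregs, from 53.32 to 187.3 FPKM.

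The response to IL-2 was measured first in mice with isotype antibody. Gimap7, Gimap4, Gimap1, Gimap5 and Gimap9 rose with each of the 3 molecules, Gimap8 rose with WT IL-2 and H16R, Gimap3 rose with H16R, and Gimap6 did not pass the test with any. Thus 6 of 8 members rose with WT IL-2, where 26.0% of the 12392 genes tested rose. H16R raised 7 members against 31.4% of all genes, and 3x raised 5 members against 31.3%. The median log2 fold change of the 8 was 0.26, 0.35 and 0.26 for these molecules in that order, and that of all tested genes was -0.01 in each.

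Gimap7 moved most. In isotype PBS Tregs its 4 libraries were at 95.22, 79.53, 98.58 and 68.28 CPM. With WT IL-2 they were at 184.3, 199.2, 181.8 and 166.2 CPM, and with H16R at 198.4, 178.6, 199.3 and 197.7 CPM. With 3x they were at 160.2, 139.3, 165.2 and 155.9 CPM. Every IL-2-treated library was above every PBS library, and all 3x libraries were below all WT IL-2 libraries. The log2 fold change against PBS was 1.09 ± 0.10 (SE) with WT IL-2, a 2.13-fold rise (edgeR adjusted p = 2.55e-09). H16R gave 1.18 ± 0.10 (2.26-fold, edgeR adjusted p = 2.11e-10) and 3x gave 0.87 ± 0.10 (1.82-fold, edgeR adjusted p = 5.91e-08). Of all 12392 genes, 1.79% to 3.59% had a higher log2 fold change than Gimap7 or the same in the 3 comparisons.

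Gimap4 was the next in size and is far more abundant. Its isotype PBS libraries were at 449, 490.3, 532.6 and 474.4 CPM. The WT IL-2 libraries were at 772.1, 839, 732.9 and 655.1 CPM, and the H16R libraries at 835.7, 743.8, 853 and 829.8 CPM. The 3x libraries were at 767.7, 720.4, 744.9 and 766.4 CPM, so that no treated library reached down to the PBS range while the 3 treated groups overlapped. The log2 fold change was 0.62 ± 0.08 for WT IL-2, 0.75 ± 0.08 for H16R and 0.63 ± 0.08 for 3x (edgeR adjusted p from 8.39e-09 to 4.71e-07).

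Gimap1, which mature lymphocytes need to survive, was at 175.5, 167.4, 167.9 and 138.4 CPM in isotype PBS Tregs and at 224.8, 226.2, 242.6 and 222.3 CPM with H16R. The groups did not overlap, and the log2 fold change was 0.50 ± 0.06 with H16R, 0.38 ± 0.06 with WT IL-2 and 0.33 ± 0.06 with 3x. Its neighbor Gimap5, the survival gene of the family, rose by 0.30, 0.31 and 0.20 with WT IL-2, H16R and 3x (SE 0.06 in each). Gimap5 went from 88.74, 98.83, 96.06 and 78.09 CPM with PBS to 112.9, 114.2, 111.7 and 108.7 CPM with H16R, again without overlap. Gimap9 rose by 0.22 ± 0.07 with WT IL-2, where the groups overlapped, and by 0.40 ± 0.07 with H16R and 0.39 ± 0.07 with 3x, where they did not. The RSEM expected counts of Gimap1, Gimap3 and Gimap5 were not whole in 43, 46 and 44 of the 48 libraries, and those of Gimap1os, which overlaps Gimap1, were not whole in 40. Counts that are not whole hold reads shared out between genes, so these values carry the error of that step, while those of the other 5 members were whole in every library. Of the 100-base windows of Gimap3 transcripts 1.7% also occurred in Gimap5. Of those of Gimap5, 2.3% occurred in Gimap3 or in Gm28053, a readthrough model over Gimap7, Gimap1 and Gimap5 whose cells were empty in 48 of 48 libraries. Gimap1 shared 3.2% of its windows, all with Gm28053 and none with Gimap3 or Gimap5.

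The remaining members differed least from PBS. Gimap8, with its several GTPase domains, rose by 0.12 ± 0.05 with WT IL-2 and 0.21 ± 0.05 with H16R. Without replicate 1 of isotype PBS, the library with most B cell markers, Gimap8 with WT IL-2 was at 0.07 (edgeR adjusted p = 0.227) and did not pass. Its value with 3x was 0.05 ± 0.05 (edgeR adjusted p = 0.364). Gimap3 had 911.1, 1023, 1011 and 978.5 CPM with PBS and 1091, 1046, 1110 and 1113 CPM with H16R, without overlap and with a log2 fold change of 0.16 ± 0.04. With WT IL-2 Gimap3 was at 0.09 ± 0.04 (edgeR adjusted p = 0.109) and with 3x at 0.01 ± 0.04. Gimap6 had 948.6, 980.3, 1018 and 1149 CPM with PBS, and its 95% intervals for the 3 molecules ran from -0.14 to 0.21 on the log2 scale, so changes of the size seen for Gimap4 lie outside them.

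**Figure D3:**
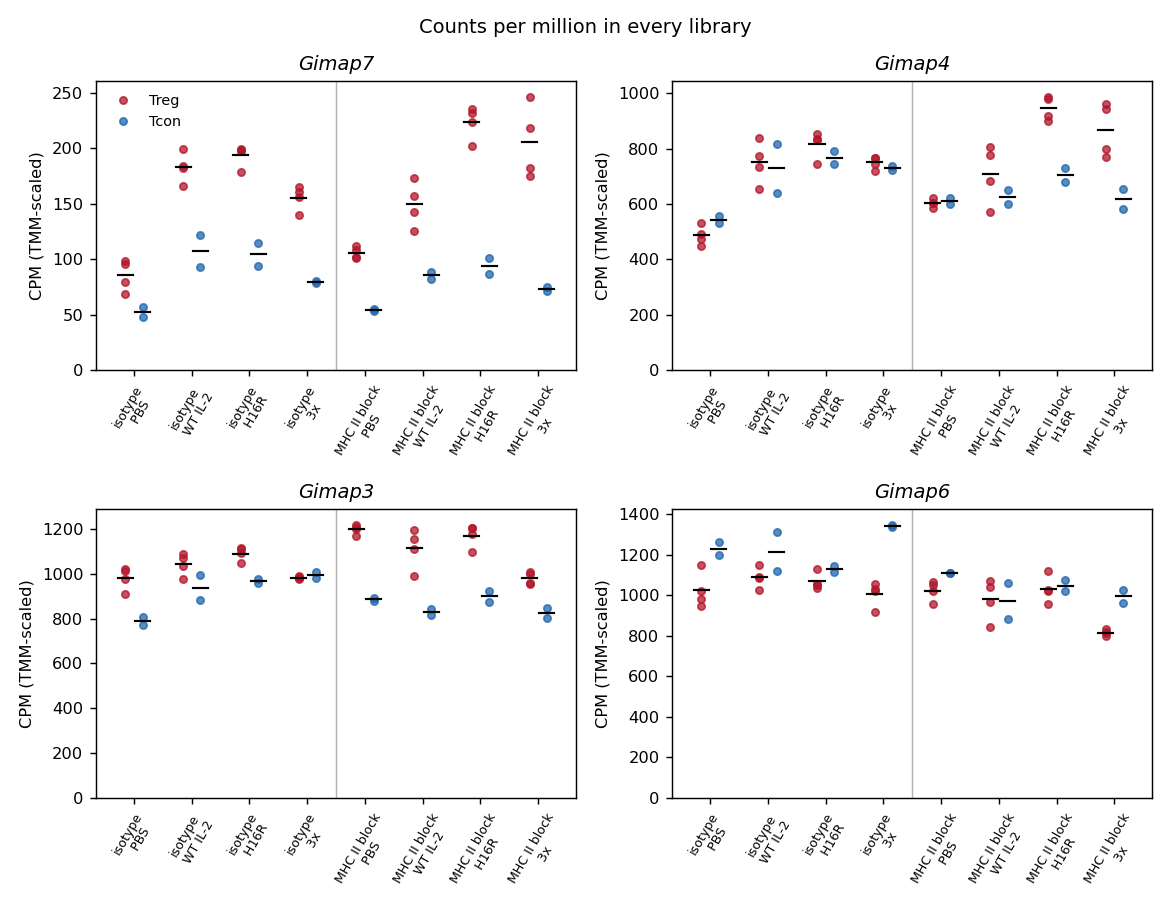
CPM scaled by TMM of Gimap7, Gimap4, Gimap3 and Gimap6 in each library (points: 4 Treg and 2 Tcon libraries a group), with the group mean (black line), isotype groups on the left and MHC II block groups on the right of each panel. Gimap7 in isotype Tregs goes from at most 98.58 with PBS to at least 139.3 with any IL-2 molecule, and Gimap6 with MHC II block and 3x (797.5 to 832.3) lies below all other Treg groups.

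Genes used as markers of cell makeup moved with these rises. The authors list several of them, such as Foxp3, Il2ra, Ctla4 and Trac, as raised by IL-2 in Tregs. They report that most samples were mainly Foxp3-positive cells after purification. The sum of 5 T cell markers (Cd3e, Cd3d, Cd3g, Cd4 and Trac) ran from 1429 to 1746 CPM in isotype PBS Tregs, and from 2170 to 2410 with WT IL-2, 2346 to 2408 with H16R and 2038 to 2184 with 3x. All 4 of these genes that are annotated as protein-coding rose with each molecule, with medians of 0.57, 0.59 and 0.44 on the log2 scale. The plasma cell markers Jchain and Sdc1 summed to 1489 to 1784 CPM with PBS and to 607.5 to 740, 182 to 420.4 and 80.34 to 173.6 CPM after WT IL-2, H16R and 3x. The B cell markers fell as well, 5 of 5 with each molecule. The sum of 5 Treg markers (Foxp3, Il2ra, Ikzf2, Ctla4 and Tnfrsf18) ran from 2627 to 3259 CPM with PBS and from 3921 to 4453, 4217 to 4320 and 4118 to 4329 CPM after WT IL-2, H16R and 3x. The 3 NK cell markers ran from 27.34 to 43.68 CPM with PBS and from 13.94 to 20.56, 9.515 to 13.46 and 10.97 to 19.34 CPM after the molecules in the same order. The 3 genes of dividing cells, Mki67, Top2a and Ccnb1, summed to 240.8 to 290.6 CPM with PBS and to 344.7 to 467, 382.7 to 495.4 and 529.4 to 826.5 CPM after WT IL-2, H16R and 3x. Gimap7 and Gimap4 rose more than the T cell markers' median with each molecule, and the other 6 members had lower values than that median. The part of these shifts in the GIMAP values was not tested. Without the isotype PBS library with most B cell markers and the MHC II block library with most myeloid markers, the counts were 5, 7 and 5 of 8 in place of 6, 7 and 5, and the member lost was Gimap8 with WT IL-2.

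The same comparison in mice with MHC II block asks how far these responses depend on antigen presentation. WT IL-2 raised only Gimap7 and Gimap4 here, 2 of 8 members against 21.9% of all genes. H16R raised 5 members (32.7% of all genes): Gimap7, Gimap4, Gimap9, Gimap1 and Gimap5. With 3x, 4 members rose (34.7% of all genes) and 2 fell (38.3% of all genes). The count for WT IL-2 was 1 without replicate 2 of the MHC II block WT IL-2 group. Without both libraries that stood apart it was 2, with Gimap7 at 0.58 (edgeR adjusted p = 0.000109) and Gimap4 at 0.33 (edgeR adjusted p = 0.00156). None of the 4 T cell markers passed with WT IL-2 in this arm (median 0.09), while 3 of 5 B cell markers were higher, and all 4 T cell markers rose with H16R (median 0.46) and with 3x (median 0.31). The 6 myeloid markers summed to 26.3 to 40.42 CPM with PBS, 41.34 to 508.7 CPM with WT IL-2, 48.04 to 82.02 CPM with H16R and 60.96 to 83.68 CPM with 3x. The 2 plasma cell markers summed to 569.7 to 1864 CPM with PBS, 1496 to 2971 CPM with WT IL-2, 534.6 to 1160 CPM with H16R and 560.3 to 1326 CPM with 3x. Treg markers summed to 2775 to 2986 CPM with PBS and to 2409 to 3386, 3735 to 4114 and 3985 to 4547 CPM after WT IL-2, H16R and 3x. NK cell markers summed to 25.93 to 35.78 CPM with PBS and to 34.93 to 49.33, 19 to 30.55 and 21.36 to 26.02 CPM after the molecules. Genes of dividing cells summed to 278.7 to 307.4 CPM with PBS and to 363 to 473.3, 549.9 to 643.1 and 816.8 to 1087 CPM after them. The part of these markers was not tested.

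Gimap7 had 112, 108.5, 100.8 and 101.6 CPM with PBS under MHC II block. It had 125.4, 172.8, 156.8 and 142.6 CPM with WT IL-2 and 232, 201.7, 223.9 and 235.2 CPM with H16R. With 3x it had 218.2, 175.2, 181.7 and 245.6 CPM, so every treated library was above every PBS library, and all H16R and 3x libraries were above all WT IL-2 libraries. The log2 fold change was 0.52 ± 0.10 with WT IL-2 (1.43-fold, edgeR adjusted p = 0.000438), 1.08 ± 0.10 with H16R (2.11-fold) and 0.95 ± 0.10 with 3x (1.93-fold). Gimap4 was at 605, 622.6, 586.6 and 603 CPM with PBS and at 570.7, 804.1, 777.6 and 684 CPM with WT IL-2, which overlapped. It was at 984.7, 916.7, 899.9 and 980.1 CPM with H16R, where it rose by 0.64 ± 0.08, and at 942.5, 771.1, 797.9 and 962.1 CPM with 3x, where it rose by 0.51 ± 0.08.

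The 2 members that fell were Gimap6 and Gimap3, with 3x and MHC II block. Gimap6, the member that binds an autophagy protein, was at 1051, 1063, 956.8 and 1019 CPM with PBS and at 812, 832.3, 797.5 and 818.7 CPM with 3x. The groups did not overlap, and these 4 libraries were the lowest of all 32 for Gimap6, with the MHC II block WT IL-2 library that stood apart next at 840.7 CPM. Gimap6 changed by -0.34 ± 0.06 (0.79-fold, edgeR adjusted p = 2.16e-05). Gimap3 went from 1199, 1217, 1170 and 1208 CPM to 1007, 957.1, 954.7 and 1000 CPM, a log2 fold change of -0.30 ± 0.04 (0.81-fold, edgeR adjusted p = 7.6e-07) without overlap. In the isotype arm the 3x values of these genes were -0.01 ± 0.06 for Gimap6 and 0.01 ± 0.04 for Gimap3. Mean Gimap3 with 3x was alike in the arms, 979.8 CPM with MHC II block and 982.7 CPM with isotype. Its PBS means were 1199 and 980.8 CPM in the same order. For Gimap6 the means were 815.1 and 1006 CPM with 3x, and 1022 and 1024 CPM with PBS. Genes of dividing cells (Mki67, Top2a and Ccnb1) summed to 816.8 to 1087 CPM in this group, whose median was the highest of the Treg groups, against 278.7 to 307.4 CPM with PBS and MHC II block, and their part in these falls was not tested.

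**Figure D4:**
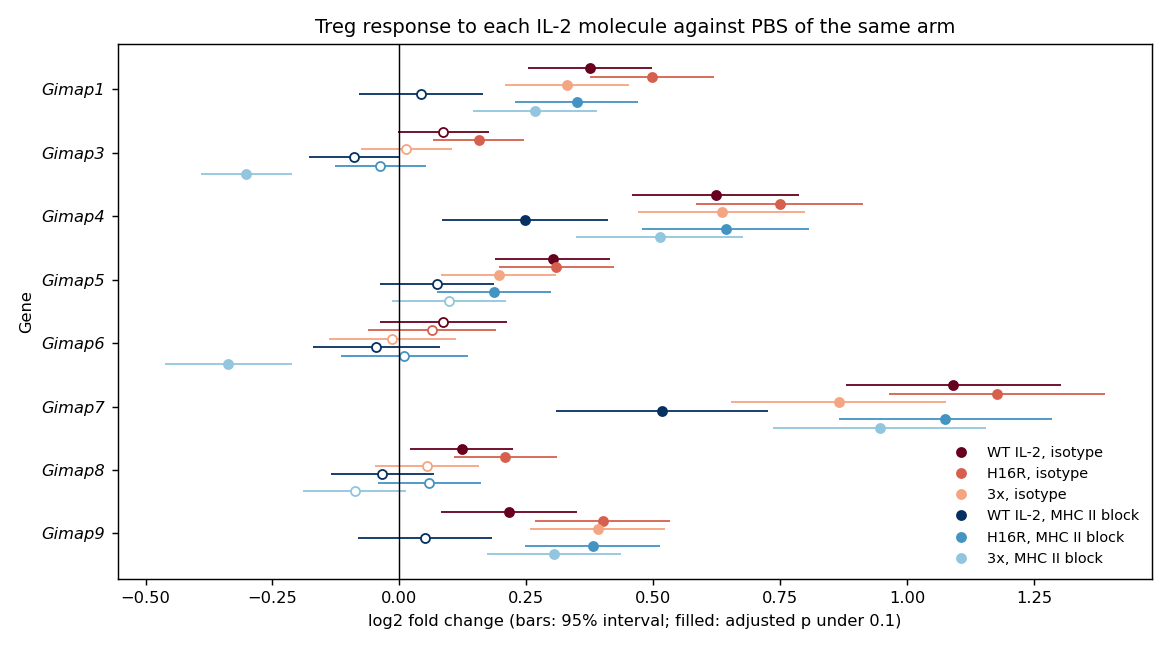
log2 fold change of each member in Tregs for each IL-2 molecule against PBS of the same antibody arm (points, with 95% interval, filled where the adjusted p was under 0.1). Gimap7 and Gimap4 are filled in all 6 comparisons, and Gimap6 and Gimap3 are below 0 and filled for 3x with MHC II block (-0.34 and -0.30).

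Whether a response differed between the antibody arms was tested as the difference of the 2 responses. For WT IL-2, 5 of 8 members responded less with MHC II block, where 7.98% of all genes had a lower response. Gimap7 differed by -0.57 ± 0.15 (edgeR adjusted p = 0.00692), Gimap4 by -0.37 ± 0.11 (edgeR adjusted p = 0.0239) and Gimap1 by -0.33 ± 0.08 (edgeR adjusted p = 0.00692). Gimap5 differed by -0.23 ± 0.08 and Gimap3 by -0.18 ± 0.06. The PBS means of these 5 members were higher with MHC II block. For Gimap7 they were 105.7 against 85.4 CPM, for Gimap4 604.3 against 486.6 CPM and for Gimap3 1199 against 980.8 CPM. With WT IL-2 the means were 149.4 against 182.9 CPM, 709.1 against 749.8 CPM and 1113 against 1042 CPM in the same order. Gimap6, Gimap8 and Gimap9 were at -0.13, -0.16 and -0.17 and did not pass. The 4 tested T cell markers also responded less, with a median of -0.48, and the 5 B cell markers had a higher response, with a median of 3.80. The part of this in the GIMAP values was not tested. Without both libraries that stood apart, 3 members passed: Gimap7 at -0.57 (edgeR adjusted p = 0.00979), Gimap1 at -0.37 (edgeR adjusted p = 0.00603) and Gimap4 at -0.26 (edgeR adjusted p = 0.0969). Gimap3 was then at -0.10 and Gimap5 at -0.20.

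The same difference was read for the muteins, and whether it differed between molecules was not tested. With H16R all 8 values were below 0 (median -0.11). The response of 1 member, Gimap3, was lower with MHC II block (-0.19 ± 0.06, edgeR adjusted p = 0.0406), against 8.47% of all genes, and the count was 0 without replicate 3 of the MHC II block H16R group. Gimap7 differed by -0.10 ± 0.15 and Gimap4 by -0.11 ± 0.11, with 95% intervals of -0.40 to 0.19 and -0.34 to 0.13. With 3x, Gimap6 (-0.32 ± 0.09, edgeR adjusted p = 0.00624) and Gimap3 (-0.31 ± 0.06, edgeR adjusted p = 0.000451) responded lower with MHC II block, 2 of 8 members against 18.7% of all genes. Gimap7 differed by 0.08 ± 0.15 there, with an interval of -0.22 to 0.38. Without both libraries that stood apart, Gimap3 alone passed with H16R (-0.17), where Gimap9 was at 0.01, and Gimap6 (-0.30) and Gimap3 (-0.29) with 3x. Comparisons within an arm share their PBS mice, as do the differences between arms.

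**Figure D5:**
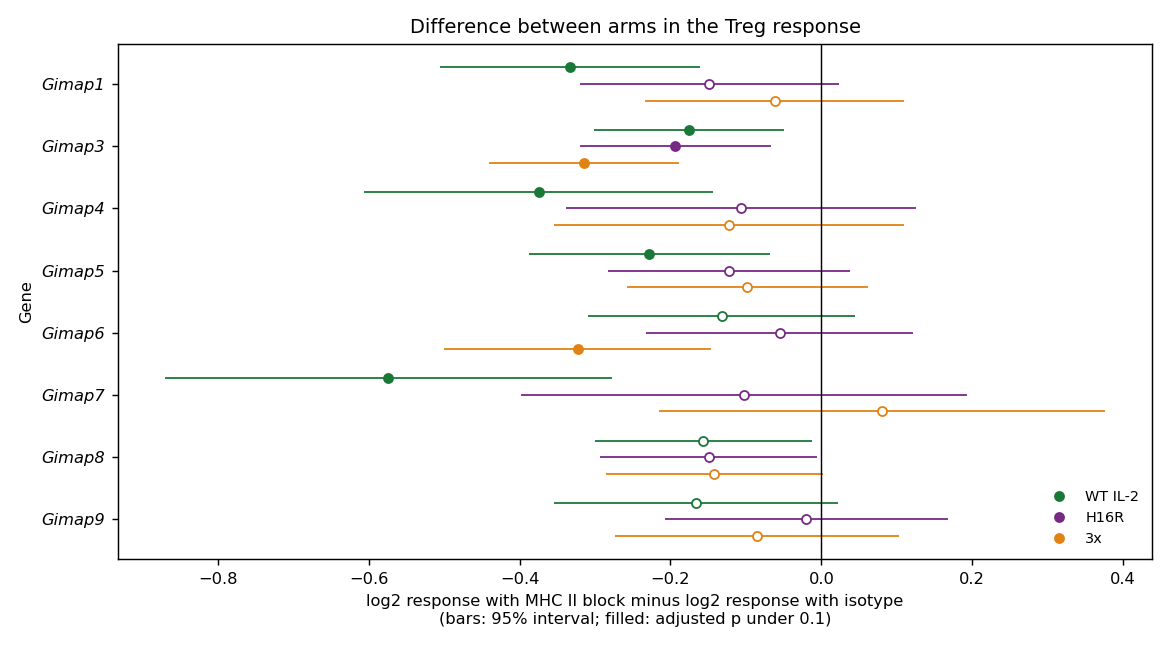
Difference between the antibody arms in the log2 response to each molecule (MHC II block minus isotype, points with 95% interval, filled where the adjusted p was under 0.1). For WT IL-2, Gimap7 lies at -0.57 and 5 members are filled, while for H16R only Gimap3 is filled and for 3x Gimap3 and Gimap6.

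The effect of MHC II block itself was read within each treatment. In PBS mice, which received no IL-2, 5 members were higher with MHC II block, where 6.00% of all genes were: Gimap4 (0.31 ± 0.08), Gimap7 (0.30 ± 0.10), Gimap3 (0.29 ± 0.04), Gimap8 (0.20 ± 0.05) and Gimap1 (0.19 ± 0.06). For each of these 5 every MHC II block library was above every isotype library, as it was for 6.24% of all genes. For Gimap3 this was 1170 CPM at the lowest against 1023 at the highest (edgeR adjusted p = 8.74e-05). Gimap6 was at 0.00 ± 0.06, with an interval of -0.13 to 0.12. Of the T cell markers 1 of 4 was higher in this comparison, and 5 of 5 B cell markers were lower, and their part was not tested. Without replicate 4 of isotype PBS, 3 members passed, and the same 5 members passed without both libraries that stood apart.

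In mice given WT IL-2, 1 member was higher with MHC II block (Gimap3, 0.11 ± 0.04; 18.2% of all genes) and 2 were lower (Gimap7, -0.27 ± 0.10, and Gimap1, -0.14 ± 0.06; 15.3%). All 3 overlapped between arms, and without both libraries that stood apart only Gimap3 passed (0.16, edgeR adjusted p = 0.00701), with Gimap7 at -0.21 (edgeR adjusted p = 0.144). The 4 T cell markers were lower as well (median -0.30), and their part was not tested. With H16R, Gimap4 (0.20 ± 0.08) and Gimap9 (0.15 ± 0.06) were higher, 2 of 8 members against 15.4%, and neither passed without replicate 2 of isotype H16R, where the count was 0. With 3x, Gimap7 (0.38 ± 0.10), Gimap4 (0.19 ± 0.08) and Gimap1 (0.13 ± 0.06) were higher (27.2% of all genes) and Gimap6 was lower (-0.33 ± 0.06, edgeR adjusted p = 0.000103; 26.9%). Gimap6 with 3x had 915, 1019, 1032 and 1057 CPM with isotype and at most 832.3 CPM with MHC II block. The count with 3x was 2 without replicate 2 of isotype 3x. Markers of other cells moved with these comparisons. With H16R, isotype against MHC II block, plasma cell markers summed to 182 to 420.4 against 534.6 to 1160 CPM, myeloid markers to 16.52 to 20.53 against 48.04 to 82.02 CPM and B cell markers to 26.11 to 34.1 against 42.36 to 74.34 CPM. With 3x these sums were 80.34 to 173.6 against 560.3 to 1326 CPM, 23.83 to 29.23 against 60.96 to 83.68 CPM and 24.06 to 31.23 against 48.25 to 107.9 CPM. With WT IL-2 they were 607.5 to 740 against 1496 to 2971 CPM, 20.66 to 29.84 against 41.34 to 508.7 CPM and 42.11 to 78.66 against 71.27 to 517.9 CPM. NK cell markers were at 13.94 to 20.56 against 34.93 to 49.33 CPM with WT IL-2, 9.515 to 13.46 against 19 to 30.55 CPM with H16R and 10.97 to 19.34 against 21.36 to 26.02 CPM with 3x. Genes of dividing cells were at 344.7 to 467 against 363 to 473.3 CPM, 382.7 to 495.4 against 549.9 to 643.1 CPM and 529.4 to 826.5 against 816.8 to 1087 CPM in the same order. Their part was not tested.

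The molecules were also set against each other at the same dose and day, 3 pairs in each arm. With isotype, H16R and WT IL-2 differed for Gimap9 alone (0.18 ± 0.06, edgeR adjusted p = 0.0584), 1 of 8 members against 8.87% of all genes that were higher, and the interval for Gimap7 was -0.12 to 0.29. Between 3x and WT IL-2, Gimap9 was higher (0.17 ± 0.06; 16.9% of all genes) and Gimap7 lower with 3x (-0.23 ± 0.10, edgeR adjusted p = 0.0975; 17.7%). Against H16R, 3x gave lower values of Gimap7 (-0.31 ± 0.10), Gimap1 (-0.17 ± 0.06), Gimap8 (-0.15 ± 0.05) and Gimap3 (-0.14 ± 0.04), 4 of 8 members where 5.77% of all genes were lower. With Gimap5, which did not pass, 5 members lay wholly lower with 3x, as did 10.4% of all genes. Of the T cell markers 2 of 4 were lower with 3x than with H16R. Plasma cell markers summed to 607.5 to 740 CPM with WT IL-2, 182 to 420.4 CPM with H16R and 80.34 to 173.6 CPM with 3x, and the genes of dividing cells to 344.7 to 467, 382.7 to 495.4 and 529.4 to 826.5 CPM. The part of these markers was not tested. The count of 4 was 0 without replicate 4 of isotype H16R, and the 3x against WT IL-2 count was 0 without replicate 1 of isotype 3x. The latter count was below its main value of 2 in 22 of 32 fits with 1 library left out. With a replicate block, Gimap7 was at -0.226 between 3x and WT IL-2 (edgeR adjusted p = 0.118) and did not pass. Between H16R and WT IL-2 the count was 0 without replicate 3a of isotype WT IL-2. It was also 0 with libraries scaled by total counts alone and with FPKM in place of counts.

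The same pairs were read with MHC II block. H16R gave higher values than WT IL-2 for 5 members (25.5% of all genes): Gimap7 (0.56 ± 0.10, edgeR adjusted p = 7.67e-05), Gimap4 (0.39 ± 0.08), Gimap9 (0.33 ± 0.06), Gimap1 (0.31 ± 0.06) and Gimap5 (0.11 ± 0.06). Between 3x and WT IL-2, Gimap7 (0.43 ± 0.10), Gimap4 (0.26 ± 0.08), Gimap9 (0.26 ± 0.06) and Gimap1 (0.22 ± 0.06) were higher with 3x (30.0% of all genes), and Gimap6 (-0.29 ± 0.06) and Gimap3 (-0.21 ± 0.04) were lower (38.7%). Between the muteins, Gimap6 (-0.35 ± 0.06), Gimap3 (-0.26 ± 0.04) and Gimap8 (-0.15 ± 0.05) were lower with 3x, 3 of 8 members against 12.5%, and all 3 lay wholly lower, as did 9.44% of all genes. Gimap7 (-0.13 ± 0.10, interval -0.34 to 0.08) and Gimap4 (-0.13 ± 0.08, interval -0.29 to 0.03) did not pass between the muteins. The WT IL-2 group holds the library that stood apart, and without both such libraries H16R still gave higher Gimap7 (0.49), Gimap4 (0.31), Gimap9 (0.29) and Gimap1 (0.29), while Gimap5 was at 0.08 (edgeR adjusted p = 0.244). The 6 members that passed between 3x and WT IL-2 passed then too, with Gimap7 at 0.36, Gimap4 at 0.18, Gimap6 at -0.35 and Gimap3 at -0.26, and Gimap8 passed as well (-0.10, edgeR adjusted p = 0.0616). Between H16R and WT IL-2 in this arm the 4 T cell markers were higher (median 0.38) and the 5 B cell markers lower, and between the muteins 3 of 4 T cell markers were lower with 3x (median -0.18). Plasma cell markers were at 1496 to 2971 CPM with WT IL-2, 534.6 to 1160 CPM with H16R and 560.3 to 1326 CPM with 3x, and the genes of dividing cells at 363 to 473.3, 549.9 to 643.1 and 816.8 to 1087 CPM. Their part was not tested.

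Tregs and Tcons of the same mouse were compared in 16 mice with the mouse as a block. All members but Gimap6 were higher in Tregs, 7 of 8 where 38.2% of 12844 genes were higher, and Gimap6 was lower, where 37.7% were. Gimap7 ran from 68.28 to 245.6 CPM over all 32 Treg libraries with a median of 169.5, and from 48.35 to 121.9 CPM in the 16 Tcon libraries with a median of 81.38. It was higher in the Tregs of 16 of 16 mice, by 0.99 ± 0.06 on the log2 scale (1.99-fold, edgeR adjusted p = 4.2e-11). Gimap1 (0.50 ± 0.03), Gimap5 (0.47 ± 0.03), Gimap9 (0.45 ± 0.03) and Gimap8 (0.31 ± 0.04) were higher in 16 of 16 mice as well. Gimap3 was higher in 14 of 16 (0.28 ± 0.04) and Gimap4 in 10 of 16 (0.14 ± 0.06, edgeR adjusted p = 0.0317). Gimap6 was higher in Tregs of 2 of 16 mice and lower in the rest (-0.16 ± 0.05, edgeR adjusted p = 0.0035). With libraries scaled by total counts alone, Gimap4 was at 0.07 (adjusted p = 0.238), and the directions of the other 7 held. All 8 members passed without mouse 1 of isotype PBS and without mouse 1 of MHC II block WT IL-2. The 4 tested T cell markers were higher in Tregs too (median 0.35) and the 5 B cell markers lower (median -2.36), and their part was not tested.

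In PBS mice 6 members were higher in Tregs (21.7% of all genes) and Gimap6 was lower (-0.21 ± 0.09; 22.9%), with Gimap4 at -0.10 ± 0.09. In IL-2-treated mice 7 were higher (40.1%) and Gimap6 lower (-0.15 ± 0.05; 38.0%). The gap between the cell types was wider with IL-2 for Gimap4 (0.32 ± 0.11), Gimap1 (0.19 ± 0.06) and Gimap5 (0.15 ± 0.06), 3 of 8 members where 19.9% of all genes had a wider gap in that direction. For Gimap7 the gap was 0.88 ± 0.12 in PBS mice and 1.03 ± 0.07 in treated mice, and the difference of 0.14 ± 0.14 did not pass. The gap of all 4 T cell markers was wider too (median 0.36), and its part was not tested. Without mouse 1 of isotype PBS, Gimap1 alone passed the test of this difference, with Gimap4 at 0.26 (edgeR adjusted p = 0.137) and Gimap5 at 0.13 (edgeR adjusted p = 0.204), and Gimap6 in PBS mice was at -0.16 (edgeR adjusted p = 0.253).

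In Tcons, averaged over both arms, Gimap7, Gimap4 and Gimap9 were higher with each molecule, and H16R also raised Gimap3 and Gimap1. WT IL-2 raised 3 of 8 members against 21.9% of 12526 genes, H16R 5 against 21.7% and 3x 3 against 8.46%. Without replicate 1 of isotype PBS the counts were 2, 3 and 2. Gimap7 had 56.92 and 48.35 CPM in isotype PBS Tcons and 53.52 and 54.84 CPM with MHC II block. After WT IL-2 it had 92.51, 121.9, 82.33 and 88.5 CPM over both arms, with H16R 114.8, 93.72, 101 and 86.25 CPM, and with 3x 80.43, 78.69, 74.56 and 71.27 CPM. No treated library overlapped with PBS, and the log2 fold change was 0.84 ± 0.10, 0.89 ± 0.10 and 0.51 ± 0.10 (edgeR adjusted p = 0.000163, 0.000113 and 0.00741). Gimap4 rose by 0.23 ± 0.07, 0.35 ± 0.07 and 0.22 ± 0.07, and Gimap9 by 0.19 ± 0.05, 0.31 ± 0.05 and 0.32 ± 0.05. By arm, mean Gimap4 went from 543.7 CPM with PBS to 728.3, 767.7 and 731.3 CPM after the molecules with isotype. With MHC II block it went from 609.9 to 626.5, 705 and 617.6 CPM. Mean Gimap3 with H16R went from 789.5 to 966.9 CPM with isotype and from 886.7 to 899.5 CPM with MHC II block. Gimap1 went from 130.9 to 154.3 and from 150.5 to 151.6 CPM in the same order. The difference between arms was not tested in Tcons. None of the 4 T cell markers rose in Tcons with any molecule, and 1 fell with WT IL-2 and with H16R. In isotype Tcons the B cell markers summed to 762.9 to 830 CPM with PBS and to 132.2 to 384.2 CPM over the molecules. In Tcons with MHC II block the myeloid markers summed to 59.82 to 61.63 CPM with PBS and to 223 to 666.7 CPM over the molecules. The sum of the 5 Treg markers in isotype Tcons was 429.6 to 489.4 CPM with PBS, 574.7 to 1419 CPM with WT IL-2, 704.8 to 711.7 CPM with H16R and 488.9 to 639.3 CPM with 3x. With MHC II block it was 536.2 to 557.5 CPM with PBS and 331.9 to 437.1, 523.7 to 528.7 and 434.4 to 445.7 CPM with the molecules in the same order. Plasma cell markers in isotype Tcons were at 767.5 to 1110 CPM with PBS, 1217 to 2413 CPM with WT IL-2, 1461 to 1628 CPM with H16R and 285.6 to 384 CPM with 3x. With MHC II block they were at 617.6 to 984.5 CPM with PBS and at 2104 to 2225, 1441 to 1459 and 670.5 to 1030 CPM with the molecules. Genes of dividing cells in isotype Tcons were at 293.7 to 341.4 CPM with PBS. After the molecules they were at 373.2 to 649.6, 494.2 to 519.8 and 181.8 to 275.2 CPM. With MHC II block these sums were 338.8 to 361 CPM, then 545.7 to 648.3, 533.3 to 537.5 and 439.8 to 481.1 CPM. NK cell markers with MHC II block were at 55.17 to 62.35 CPM with PBS and at 97.5 to 154.2 CPM over the molecules. With isotype they were at 81.02 to 86.7 and 79.84 to 119.8 CPM. The part of these markers was not tested.

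Averaged over the 4 treatments, MHC II block lowered Gimap6 (-0.25 ± 0.05, edgeR adjusted p = 0.00309), Gimap8 (-0.14 ± 0.05), Gimap5 (-0.11 ± 0.04) and Gimap3 (-0.10 ± 0.03) in Tcons, 4 of 8 members where 20.2% of all genes were lower. In PBS mice the means went the other way for Gimap3 (886.7 CPM with MHC II block against 789.5), Gimap5 (77.8 against 71.51) and Gimap8 (344.9 against 329.6). Mean Gimap6 was at 1111 against 1229 CPM there. Gimap6 in Tcons had its highest values with isotype and 3x (1345 and 1337 CPM), against 1027 and 962.8 CPM with MHC II block and 3x. With 2 mice a group these contrasts rest on the pooled arms, and the count ran from 2, without replicate 2 of MHC II block 3x, to 7, without replicate 1 of isotype WT IL-2. Between isotype and MHC II block the myeloid markers were at 71.99 to 90.02 against 274.9 to 293.4 CPM with 3x, 63.72 to 72.61 against 223 to 234.5 CPM with H16R, and 111 to 139.4 against 434.2 to 666.7 CPM with WT IL-2, while with PBS they were at 172.9 to 213.8 against 59.82 to 61.63 CPM. The B cell markers were at 762.9 to 830 against 115.8 to 125 CPM with PBS and at 308.3 to 384.2 against 101.1 to 137.2 CPM with 3x. Their part was not tested.

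Across the 32 Treg libraries the members did not all move as 1 group. The Pearson correlations of log2 CPM between member pairs ran from -0.24 to 0.96 with a median of 0.48, as a description over libraries that share groups and depth. Gimap4 and Gimap7 were at 0.96 and Gimap1 and Gimap7 at 0.93, while Gimap6 was at -0.14 with Gimap7 and -0.24 with Gimap9. Gimap3 and Gimap8 formed another pair at 0.82. With the group means taken out, Gimap4 and Gimap3 were at 0.81 and Gimap4 and Gimap7 at 0.75, and in the 16 Tcon libraries Gimap4 and Gimap3 were at 0.91.

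The genes most alike were then sought outside the family. Other members, with which some members correlated more closely, were left out of this ranking. Among all other tested genes, the pattern most like Gimap7 over the 32 Treg libraries was that of Pla2g16, a phospholipase (r = 0.979), followed by Pglyrp1, a peptidoglycan recognition protein (0.968), and Laptm5, a lysosomal membrane protein of lymphocytes (0.958). Gimap4 was closest to Slfn2 (0.953), a Schlafen family gene of T cell quiescence, Cd27 (0.938) and Sla (0.930). Gimap1 was closest to Lime1 (0.961), Cd3d and Cd27 (0.954 each), and Gimap5 to Rnaset2b and Cd3d (0.902 each) and Cd3g (0.890). Gimap3 and Gimap8 were closest to Art2b, an ADP-ribosyltransferase of T cells (0.784 and 0.820), and to Ifit1bl1 (0.762 and 0.765), followed by Ifit2 (0.747) for Gimap3 and Iigp1 (0.738) for Gimap8. Gimap6 was closest to Tagap (0.882), Slc28a2 (0.845) and Cdkn1b (0.841), an inhibitor of the cell cycle. Gimap9 was closest to Wipf1 (0.908), Tha1 and Slfn1 (0.905 each). In Tcons the family mean was closest to Lrrc8c (0.966), Nck2 (0.934) and Clint1 (0.917).

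The genes of related processes were read in the same fits, beginning with the BCL2 family, which sets the balance of cell survival that GIMAP proteins are tied to. In isotype Tregs with H16R, 4 of 7 rose and 3 fell, where 31.4% of all genes rose and 32.8% fell. Bcl2l11, which encodes the death-promoting protein BIM, rose by 0.80 ± 0.05, Bak1 rose by 0.52 ± 0.10, and the survival genes Bcl2 and Bcl2l1 changed by -0.88 ± 0.09 and -0.28 ± 0.06. Of the ATG8 family of autophagy, 3 of 5 rose and 1 fell with H16R, among them Gabarapl2, whose product binds GIMAP6 (0.42 ± 0.05), against 0.06 ± 0.06 for Gimap6 itself. Between Tregs and Tcons, 6 of 7 BCL2 family genes and 5 of 5 ATG8 genes were higher in Tregs, as were 38.2% of all genes.

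Another GTPase family of immune cells, the interferon-inducible GTPases, had 16 of its 17 listed genes tested. All 16 were higher in Tregs than in Tcons, as were 38.2% of all genes, with a median of 0.80, against 0.38 for the GIMAP genes, and Gbp3 was highest at 1.98 ± 0.09. With H16R in isotype Tregs 9 of these 16 rose and 2 fell (31.4% and 32.8% of all genes), led by Gbp7 (0.92 ± 0.08), with a median of 0.24. With MHC II block and PBS 4 of 16 were higher (6.00% of all genes) and none lower (8.13%). The response to WT IL-2 was lower with MHC II block for 6 of 16 (7.98% of all genes), with a median of -0.21, beside -0.20 for the 8 GIMAP genes.

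Genes of resting and recirculating T cells formed another list. With H16R in isotype Tregs, 6 of 16 rose and 4 fell, where 31.4% of all genes rose and 32.8% fell, with S1pr1, the receptor for exit from lymphoid tissue, at 0.73 ± 0.07 and Ccr7, a homing receptor, at -0.90 ± 0.13. With 3x and MHC II block, where Gimap6 and Gimap3 fell, 11 of these 16 fell and 3 rose, where 38.3% of all genes fell and 34.7% rose, with a median of -0.45. The response to 3x was lower with MHC II block for 13 of these 16 genes and for 18.7% of all genes. Of the Notch genes, linked to GIMAP genes in developing T cells, 5 of 6 were tested in Tregs, and with H16R 3 fell (32.8% of all genes) and none rose (31.4%), with Hes1 at -2.01 ± 0.32 and Dtx1 at -0.63 ± 0.08.

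The genes around the cluster were read in the same fit. Within the cluster and 500 kb on either side the annotation lists 22 other protein-coding genes, the readthrough model among them, of which 14 were tested in Tregs. With H16R in isotype Tregs 4 of them rose and 7 fell, where 31.4% of all genes rose and 32.8% fell, with a median of -0.17. Tmem176b and Tmem176a, the nearest tested genes after Gimap3, changed by -1.23 ± 0.15 and -1.27 ± 0.14. AI854703, the nearest tested gene before Gimap8, changed by -0.25 ± 0.12, while Igf2bp3 rose by 2.49 ± 0.25. With MHC II block in PBS mice 1 of the 14 was higher and 1 lower, where 6.00% of all genes were higher and 8.13% lower, against 5 and 0 of the 8 GIMAP genes.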

How the data were processed

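RNA of bead-purified spleen T cells was sequenced by the authors from stranded mRNA libraries. The authors aligned reads with OSA to mouse genome B38 (GRCm38) and deposited expected counts per gene from the Omicsoft version of RSEM, not normalized. The authors also deposited FPKM values from the same estimates, divided by transcript length and library depth. Tables of the authors' DESeq2 comparisons hold their fold changes and adjusted p-values and were not used. Groups were taken from the sample labels. Libraries were counted as separate mice by the mouse codes in the labels. In the isotype WT IL-2 Treg group 2 libraries, called 3a and 3b here, carry the same code, which the labels do not settle, and neither enters the paired comparison. No 2 libraries of a group agreed within sampling noise (lowest chi-square per gene 4.43 over 56 pairs), which does not show that they are separate mice.

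Expected counts were rounded and analysed with edgeR 4.0.16 in R 4.3.3: protein-coding genes of GENCODE vM21 with CPM above 0.5 in at least 4 libraries, TMM scaling, 1 mean per group over all 32 Treg or all 16 Tcon libraries, quasi-likelihood tests and adjusted p-values (Benjamini-Hochberg, all tested genes) called under 0.1, the study's own limit. For the 16 mice with both fractions the fit carried a block per mouse, taken from the mouse codes in the labels, which mark both fractions of 1 animal. CPM in the text is TMM-scaled. Where groups are small, the text gives their overlap. Alternatives were DESeq2 1.42.0 and its size factors, total counts, limma 3.58.1 on log2(FPKM + 1) and log2(FPKM + 0.1), no filter, all biotypes, empty cells as 0, only the groups compared, replicate blocks and each library left out. Columns of other samples numbered 0. All 8 members are named in full. Lists and the neighbors within 500 kb are given by counts, with examples of the largest change. Genes most like a member are the 3 with the highest r of log2 CPM (prior count 2) among tested genes that are not members. The members and lists were chosen with earlier results of these data known, and the promoter motifs after the values were seen. The scripts were tested on simulated counts, where small changes in the Treg and Tcon fits were recovered less often than the criterion first set, which was then replaced by a criterion for larger changes. A member that did not pass is therefore not shown to be unchanged.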

Additional observations from a re-analysis of the deposited data

Results flagged for a closer look

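Within groups of 4 libraries, 64 pairs of a group and a member were checked for a library far from the rest, and 2 had one, where chance gives about 1 in 20. These were Gimap7 in replicate 2 of isotype H16R Tregs (178.6 CPM, below the other 3) and Gimap8 in replicate 3 of MHC II block H16R Tregs (425.5 CPM, below the other 3).

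Differences between groups under the same contrast passed the interaction test for 11 values. The response to WT IL-2 was lower with MHC II block than with isotype for Gimap7 (-0.5741), Gimap4 (-0.3749), Gimap1 (-0.3333), Gimap5 (-0.2283) and Gimap3 (-0.1754). The response to H16R was lower for Gimap3 (-0.1934), and that to 3x for Gimap6 (-0.3231) and Gimap3 (-0.3146). The gap between Tregs and Tcons was wider in IL-2-treated than in PBS mice for Gimap4 (0.3206), Gimap1 (0.1896) and Gimap5 (0.1505). All are on the log2 scale.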

How the results depend on the processing

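The members past the threshold were recounted under each alternative. Below, block is MHC II block and the Treg gap is Tregs vs Tcons in IL-2-treated minus PBS mice. Of the alternatives other than leaving out 1 library, 2059 values kept their direction and side of the threshold, 64 newly passed, 51 no longer passed and 74 changed sign. With 1 library left out the numbers were 5535, 118, 145 and 90. None of the 164 sign changes involved a value that passed before or after, and no value with a sign change was larger than 0.0806 before it. No scaling moved the median of all genes by more than 0.089 on the log2 scale (total counts). The cause of these shifts was not tested. Across Treg groups the replicate numbers were not taken to pair samples. Over 112 pairs of same-numbered libraries the correlation of deviations from the group means had a median of 0.025 (-0.481 to 0.657). Over 336 pairs with different numbers the median was -0.009 (-0.582 to 0.444). Of 32 libraries, 11 correlated best with their own number, which does not settle whether the numbers pair samples.

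With only the groups compared the count was 3 for block vs isotype, PBS, 3 for response to WT IL-2, between arms. With DESeq2 size factors the count was 5 for block vs isotype, WT IL-2. With DESeq2 the count was 5 for block vs isotype, WT IL-2. With both libraries that stood apart left out (chosen after seeing the data) the count was 1 for block vs isotype, WT IL-2, 3 for response to WT IL-2, between arms. With total counts the count was 4 for block vs isotype, H16R, 0 for H16R vs WT IL-2, isotype. With no filter the count was 1 for block vs isotype, H16R, 0 for response to H16R, between arms, 1 for 3x vs WT IL-2, isotype. With a replicate block the count was 1 for block vs isotype, H16R, 1 for 3x vs WT IL-2, isotype. With all biotypes the count was 0 for response to H16R, between arms, 1 for 3x vs WT IL-2, isotype. With limma with pseudocount 1 the count was 0 for H16R vs WT IL-2, isotype. With limma with pseudocount 0.1 the count was 0 for H16R vs WT IL-2, isotype. The replicate block moved no other count by over 1.5 times. It did change the members for block vs isotype, WT IL-2. Gimap1 no longer passed (-0.1224, edgeR adjusted p = 0.13) and Gimap6 newly passed (-0.1502, edgeR adjusted p = 0.0595).

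Sign changes with total counts were Gimap6 at -0.0033 (H16R vs PBS, isotype), Gimap3 at -0.0441 (3x vs PBS, isotype), Gimap8 at -0.0039 (3x vs PBS, isotype), Gimap1 at -0.0046 (WT IL-2 vs PBS, block), Gimap6 at -0.0485 (H16R vs PBS, block), Gimap6 at 0.0156 (block vs isotype, PBS), Gimap5 at 0.0203 (block vs isotype, H16R), Gimap3 at 0.0152 (block vs isotype, 3x), Gimap5 at -0.0261 (H16R vs WT IL-2, isotype), Gimap4 at -0.0124 (3x vs WT IL-2, isotype), Gimap9 at 0.0004 (3x vs H16R, isotype), Gimap6 at -0.0038 (the Treg gap), Gimap9 at -0.034 (the Treg gap), Gimap1 at -0.0048 (Tcon WT IL-2 vs PBS). Sign changes with no filter were Gimap6 at 0.0081 (3x vs PBS, isotype), Gimap6 at 0.0058 (block vs isotype, PBS), Gimap9 at -0.0287 (block vs isotype, WT IL-2), Gimap5 at 0.0074 (block vs isotype, H16R), Gimap3 at 0.0061 (block vs isotype, 3x), Gimap8 at 0.0112 (3x vs WT IL-2, block), Gimap1 at -0.0022 (Tcon block vs isotype). Sign changes with limma with pseudocount 1 were Gimap3 at -0.0435 (3x vs PBS, isotype), Gimap1 at -0.0051 (WT IL-2 vs PBS, block), Gimap6 at -0.0099 (H16R vs PBS, block), Gimap6 at 0.0412 (block vs isotype, PBS), Gimap5 at 0.0183 (block vs isotype, H16R), Gimap3 at 0.0155 (block vs isotype, 3x), Gimap5 at -0.025 (H16R vs WT IL-2, isotype), Gimap4 at -0.0132 (3x vs WT IL-2, isotype), Gimap9 at 0.0008 (3x vs H16R, isotype), Gimap6 at -0.0151 (the Treg gap), Gimap9 at -0.0308 (the Treg gap), Gimap1 at -0.0052 (Tcon WT IL-2 vs PBS), Gimap6 at 0.0156 (Tcon 3x vs PBS). Sign changes with limma with pseudocount 0.1 were Gimap3 at -0.0436 (3x vs PBS, isotype), Gimap1 at -0.0051 (WT IL-2 vs PBS, block), Gimap6 at -0.0099 (H16R vs PBS, block), Gimap6 at 0.0412 (block vs isotype, PBS), Gimap5 at 0.0185 (block vs isotype, H16R), Gimap3 at 0.0155 (block vs isotype, 3x), Gimap5 at -0.0254 (H16R vs WT IL-2, isotype), Gimap4 at -0.0132 (3x vs WT IL-2, isotype), Gimap9 at 0.0008 (3x vs H16R, isotype), Gimap6 at -0.0152 (the Treg gap), Gimap9 at -0.0322 (the Treg gap), Gimap1 at -0.0053 (Tcon WT IL-2 vs PBS), Gimap6 at 0.0156 (Tcon 3x vs PBS). With all biotypes the signs that turned were Gimap6 at 0.0013 (3x vs PBS, isotype), Gimap3 at 0.0131 (H16R vs PBS, block), Gimap9 at -0.0261 (block vs isotype, WT IL-2), Gimap5 at 0.0151 (block vs isotype, H16R), Gimap3 at 0.0219 (block vs isotype, 3x), Gimap9 at 0.0097 (response to H16R, between arms), Gimap8 at 0.025 (3x vs WT IL-2, block), Gimap9 at -0.0121 (the Treg gap). With both libraries that stood apart left out (chosen after seeing the data) the signs that turned were Gimap3 at -0.0146 (3x vs PBS, isotype), Gimap6 at 0.0119 (WT IL-2 vs PBS, block), Gimap8 at 0.0069 (WT IL-2 vs PBS, block), Gimap4 at 0.0202 (block vs isotype, WT IL-2), Gimap9 at 0.0094 (response to H16R, between arms), Gimap6 at -0.0035 (H16R vs WT IL-2, block), Gimap5 at -0.0064 (3x vs WT IL-2, block). With only the groups compared the signs that turned were Gimap6 at 0.0039 (block vs isotype, PBS), Gimap9 at -0.0069 (block vs isotype, WT IL-2). With DESeq2 size factors the signs that turned were Gimap9 at -0.0066 (block vs isotype, WT IL-2), Gimap1 at -0.0035 (Tcon WT IL-2 vs PBS), Gimap5 at -0.0062 (Tcon 3x vs PBS), Gimap8 at -0.0062 (Tcon 3x vs PBS), Gimap1 at 0 (Tcon block vs isotype). With DESeq2 the signs that turned were Gimap9 at -0.0065 (block vs isotype, WT IL-2), Gimap1 at -0.0034 (Tcon WT IL-2 vs PBS), Gimap5 at -0.0062 (Tcon 3x vs PBS), Gimap8 at -0.0062 (Tcon 3x vs PBS), Gimap1 at -0.0002 (Tcon block vs isotype).

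With 1 library left out at a time the count ran from 1 to 3 for WT IL-2 vs PBS, block, 3 to 6 for block vs isotype, PBS, 1 to 5 for block vs isotype, WT IL-2, 0 to 3 for block vs isotype, H16R, 2 to 4 for block vs isotype, 3x, 3 to 6 for response to WT IL-2, between arms, 0 to 2 for response to H16R, between arms, 0 to 2 for H16R vs WT IL-2, isotype, 0 to 3 for 3x vs WT IL-2, isotype, 0 to 4 for 3x vs H16R, isotype, 1 to 3 for the Treg gap, 2 to 5 for Tcon WT IL-2 vs PBS, 3 to 5 for Tcon H16R vs PBS, 2 to 7 for Tcon block vs isotype. The members that changed sign ran from -0.0142 to 0.039 for Gimap3 (3x vs PBS, isotype), -0.0424 to 0.0452 for Gimap6 (3x vs PBS, isotype), -0.0867 to 0.0119 for Gimap6 (WT IL-2 vs PBS, block), -0.0708 to 0.0069 for Gimap8 (WT IL-2 vs PBS, block), -0.0404 to 0.0442 for Gimap6 (H16R vs PBS, block), -0.0305 to 0.0582 for Gimap6 (block vs isotype, PBS), -0.1265 to 0.0199 for Gimap4 (block vs isotype, WT IL-2), -0.0296 to 0.0399 for Gimap9 (block vs isotype, WT IL-2), -0.0357 to 0.0257 for Gimap5 (block vs isotype, H16R), -0.0095 to 0.0325 for Gimap5 (block vs isotype, 3x), -0.0772 to 0.028 for Gimap9 (response to H16R, between arms), -0.11 to 0.0063 for Gimap1 (response to 3x, between arms), -0.0284 to 0.1722 for Gimap7 (response to 3x, between arms), -0.0189 to 0.0275 for Gimap5 (H16R vs WT IL-2, isotype), -0.0497 to 0.0095 for Gimap6 (H16R vs WT IL-2, isotype), -0.0472 to 0.0775 for Gimap4 (3x vs WT IL-2, isotype), -0.0383 to 0.0375 for Gimap9 (3x vs H16R, isotype), -0.0031 to 0.0959 for Gimap6 (H16R vs WT IL-2, block), -0.006 to 0.0726 for Gimap5 (3x vs WT IL-2, block), -0.0953 to 0.0041 for Gimap8 (3x vs WT IL-2, block), -0.0042 to 0.1037 for Gimap6 (the Treg gap), -0.0147 to 0.0585 for Gimap9 (the Treg gap), -0.0242 to 0.0364 for Gimap1 (Tcon WT IL-2 vs PBS), -0.0034 to 0.1197 for Gimap5 (Tcon WT IL-2 vs PBS), -0.1415 to 0.0196 for Gimap8 (Tcon WT IL-2 vs PBS), -0.0129 to 0.0258 for Gimap5 (Tcon 3x vs PBS), -0.0572 to 0.0058 for Gimap6 (Tcon 3x vs PBS), -0.0412 to 0.0392 for Gimap8 (Tcon 3x vs PBS), -0.0198 to 0.0287 for Gimap1 (Tcon block vs isotype).

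Ranked by CPM in place of FPKM, Gimap3 was at 1 and Gimap6 at 2 in Tregs, and Gimap5 at 7 and Gimap9 at 8 in Tregs and in Tcons. The lowest level of a member in any library was 48.35 CPM. Intervals cover the spread between mice of 1 experiment.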
